A study of Homo sapiens with 10 samples.

Results

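The Fanconi and homologous recombination genes are a set of 33 genes chosen by symbol, for their place in the Fanconi anaemia pathway or in repair of DNA breaks by copying a sister chromatid. The choice was made with earlier results of these data known. Of these 33, 28 were measured, among 17687 named genes in all. FANCA, FANCD2, BRCA2, RAD54B and RBBP8 had no named probe set and were not analysed here. RNA of 4 human myeloid cell lines was hybridised to 10 arrays, 1 for each line and condition. OR21-treated cells were HL60 (acute myeloid leukaemia) and K562 (chronic myeloid leukaemia) at 500 nM, and MDSL and SKM1 (both from myelodysplastic syndrome) at 100 nM, each for 96 h. OR21 is OR-2100, called a hypomethylating agent in the title of the series. HL60 also gave 2 derivatives, labelled AZA resistant and OR21 resistant, with control treatment. The control group was the same 4 lines without OR21, and HL60 control is labelled as the parental line. The labels do not say how resistance was selected or whether a derivative was 1 clone. The study set OR21-treated against untreated cells to learn what the agent does to gene expression.

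In the Fanconi pathway a core complex of proteins puts a ubiquitin on FANCD2 and FANCI when a replication fork meets a crosslink, and nucleases then cut the crosslink out. The break that is left is repaired by homologous recombination, in which the DNA end is cut back, a strand is led into the sister molecule with the help of BRCA1, PALB2, BRCA2 and the BCDX2 and CX3 complexes, and the joined molecules are later taken apart. Hypomethylating nucleoside analogues trap DNA methyltransferases on DNA, and many genes of both pathways are transcribed mainly in cells that are replicating.

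Levels below are log2 intensities, and each difference is OR21 minus control of the same line, or derivative minus parental HL60, on the log2 scale. With OR21, 25 of the 28 genes had a lower mean over the 4 lines, as had 52.4% of all genes, and the median of the 28 mean differences was -0.56, against -0.02 over all genes. XRCC2, a subunit of the BCDX2 complex, had the largest mean difference, -1.57 ± 0.82 (SD, n = 4 lines), followed by the translocase RAD54L with -1.23 ± 0.60. In limma's test with the line as a block, 0 of the 28 passed an adjusted p of 0.05, which 0.0396% of all genes passed in either direction. At an unadjusted p under 0.05, 13 of the 28 were lower and 0 were higher, where 10.1% of all genes were called lower and 8.98% higher. These 13 became 6 without HL60, 5 without MDSL, 5 without SKM1 and 1 without the block. By the median of the 28, the differences sat in HL60, MDSL and SKM1, though 8 of the 28 (15.3% of all genes) were lower in all 4 lines. In K562 the median of the 28 was 0.09, and -0.05 when each array was centred on its median. In bulk RNA, fewer cells of a type and less RNA per cell cannot be told apart. Whether cultures were separate is not stated in the labels, so p-values measure the spread between the 4 lines only.

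Promoters are shown for the 5 genes with the largest mean differences that had an entry. These genes were picked by that size, so their low means are part of the choice. EXO1 and BRIP1 were higher with OR21 in K562, by 0.36 and 0.16. The promoters are RefSeq sequences on GRCh38.p14, from 250 bases before to 50 after the annotated start, written in the direction of the gene. Capitals mark an E2F word (TTTCCCGC or TTTCGCGC or TTTGCCGC or TTTGGCGC, on either strand) or a CCAAT box (CCAAT, on either strand, so also ATTGG).
XRCC2 chr7:152676092-152676391 (minus strand): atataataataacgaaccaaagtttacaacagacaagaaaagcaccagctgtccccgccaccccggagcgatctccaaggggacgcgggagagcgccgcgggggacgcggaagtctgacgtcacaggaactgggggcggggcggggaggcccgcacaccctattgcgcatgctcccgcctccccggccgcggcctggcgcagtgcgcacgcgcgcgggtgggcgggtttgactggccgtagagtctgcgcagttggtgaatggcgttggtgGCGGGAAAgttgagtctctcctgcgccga
RAD54L chr1:46247438-46247737 (plus strand): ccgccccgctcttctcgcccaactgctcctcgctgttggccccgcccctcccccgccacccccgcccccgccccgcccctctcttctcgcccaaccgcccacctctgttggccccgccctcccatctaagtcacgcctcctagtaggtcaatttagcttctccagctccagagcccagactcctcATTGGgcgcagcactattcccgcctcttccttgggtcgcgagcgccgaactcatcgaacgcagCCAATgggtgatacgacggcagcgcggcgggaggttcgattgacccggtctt
EXO1 chr1:241847954-241848253 (plus strand): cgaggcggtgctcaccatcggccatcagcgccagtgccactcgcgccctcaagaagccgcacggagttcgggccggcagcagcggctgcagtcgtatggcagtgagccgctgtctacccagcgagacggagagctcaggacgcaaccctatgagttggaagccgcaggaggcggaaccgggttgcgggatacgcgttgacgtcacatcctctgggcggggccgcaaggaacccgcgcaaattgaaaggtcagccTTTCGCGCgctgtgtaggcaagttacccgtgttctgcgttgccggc
XRCC3 chr14:103715402-103715701 (minus strand): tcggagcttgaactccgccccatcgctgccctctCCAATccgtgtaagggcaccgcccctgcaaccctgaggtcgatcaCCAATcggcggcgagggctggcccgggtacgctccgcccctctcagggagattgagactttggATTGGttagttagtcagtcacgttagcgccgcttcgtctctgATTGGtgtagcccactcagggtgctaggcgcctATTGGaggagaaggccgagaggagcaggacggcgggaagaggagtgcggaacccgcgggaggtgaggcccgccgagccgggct
BRIP1 chr17:61863479-61863778 (minus strand): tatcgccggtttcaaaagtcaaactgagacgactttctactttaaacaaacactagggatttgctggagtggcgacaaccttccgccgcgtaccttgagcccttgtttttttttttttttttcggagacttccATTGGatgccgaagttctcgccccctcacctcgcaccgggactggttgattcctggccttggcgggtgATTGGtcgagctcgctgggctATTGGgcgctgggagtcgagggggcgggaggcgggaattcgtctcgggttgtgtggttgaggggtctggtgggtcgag
XRCC2 held 1 E2F word, TTTCCCGC on the minus strand of the gene, whose first base was at 22 after the start, and EXO1 held TTTCGCGC on the plus strand from 5. XRCC3 held 5 CCAAT boxes, BRIP1 held 3 and RAD54L held 2. Over the 25 measured members with a promoter entry, 3 held an E2F word (XRCC2, EXO1 and FANCC), or 12%, against 4.44% of 14250 promoters of tested genes. A CCAAT box stood in 10 of the 25, or 40%, against 36.4% of all promoters. The sequence TTTGAA, the core of the CHR element of mitotic genes, stood in 3 of the 25 (FANCC, BRIP1 and UBE2T), or 12%, as in 12% of all promoters. No word searched for overlapped another in the 5 sequences shown. A match in letters is not a bound site. The median mean difference was -1.13 over the 3 members with an E2F word and -0.56 over the 22 without, a description of few genes. The windows held a median of 27 CpG in the members, against 22 over all promoters, with medians of 65.0% and 63.0% G and C.

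**Figure D1:**
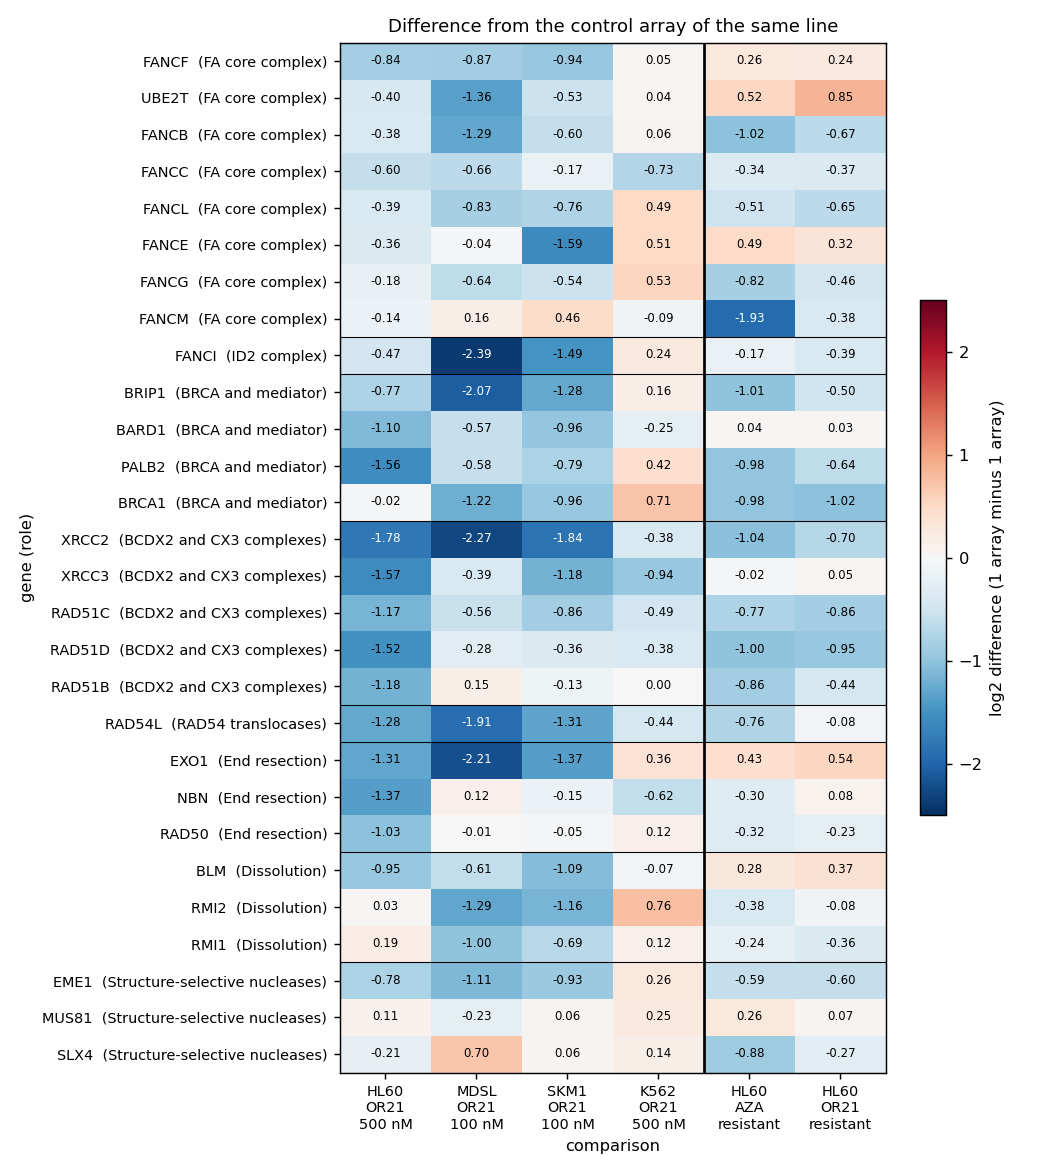
Log2 differences of the 28 genes (rows, grouped by role) in the 4 OR21 comparisons and, right of the black line, the 2 resistant HL60 derivatives (columns); each cell is 1 array minus 1 array, blue for lower. HL60, MDSL and SKM1 are mostly blue with 25, 24 and 25 lower genes, and K562 has 10 (17 when each array is centred on its median).

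The BCDX2 complex (RAD51B, RAD51C, RAD51D and XRCC2) and the CX3 complex (RAD51C and XRCC3) promote homologous recombination and protect stalled replication forks. All 5 genes had a lower mean with OR21, and 4 of the 5 were lower in each of the 4 lines. XRCC2 stood at 10.17, 6.10, 8.59 and 12.84 in OR21-treated HL60, MDSL, SKM1 and K562, against 11.95, 8.37, 10.43 and 13.22 in the controls of those lines. The OR21 array was the lower one in every line, with differences of -1.78, -2.27 and -1.84 in HL60, MDSL and SKM1 and a smaller one of -0.38 in K562. The MDSL value with OR21 was dimmer than the 95th percentile of the background probe sets of its array, and against that level the difference was at least 2.68-fold. Over the lines OR21 cells held 0.337 of the control level on geometric mean (95% interval of the log2 difference -2.34 to -0.79, adjusted p = 0.119). Without K562 the mean difference was -1.96 with an adjusted p of 0.0908, and without HL60 it was -1.50 with an adjusted p of 0.235.

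XRCC3 showed 7.41, 6.33, 6.58 and 7.27 in OR21-treated HL60, MDSL, SKM1 and K562, against 8.98, 6.72, 7.75 and 8.22 in the controls. Both MDSL values lay under the 95th percentile of background, which gives no bound, and in SKM1 the difference against that level was at least 1.55-fold. The K562 difference of XRCC3, -0.94, was the furthest below 0 of the 28 genes in that line. The mean difference was -1.02 ± 0.49 (SD, n = 4 lines, adjusted p = 0.124). RAD51C had 11.58, 10.93, 11.34 and 13.09 with OR21, against 12.75, 11.50, 12.21 and 13.58 in the controls. Its differences were more even than those of the other subunits, between -1.17 in HL60 and -0.49 in K562, with a mean of -0.77 ± 0.31 (SD, n = 4 lines, adjusted p = 0.136). RAD51D had 6.05, 6.14, 6.56 and 6.30 with OR21, against 7.57, 6.42, 6.92 and 6.68 in the controls. HL60 carried most of this, with -1.52 against -0.28 to -0.38 elsewhere (mean -0.64 ± 0.59, SD, n = 4 lines, adjusted p = 0.252). RAD51D lay at or under the 95th percentile of background on 9 arrays, all but HL60 control. Against that level its HL60 difference was at least 1.45-fold. RAD51B was dim, and OR21-treated HL60 lay under the background median of its array, at 5.19 against 6.36 in the control, at least 1.92-fold lower. Both values lay under the 95th percentile of background, which gives no bound. In MDSL, SKM1 and K562, RAD51B differed by 0.15, -0.13 and 0.00, and without HL60 its mean difference was 0.01, where the mean with HL60 was -0.29.

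RAD54L moves along DNA and acts in strand pairing. Its levels with OR21 were 8.12, 5.76, 7.50 and 9.66 in HL60, MDSL, SKM1 and K562, against 9.40, 7.66, 8.81 and 10.11 in the controls. MDSL had the largest difference, -1.91, and K562 the smallest, -0.44, and no line went the other way. OR21-treated MDSL again lay under the 95th percentile of background, which leaves a difference of at least 1.64-fold there. RAD54L averaged -1.23 over the lines (95% interval of the mean -1.86 to -0.61, adjusted p = 0.122). EXO1, an exonuclease that cuts back DNA ends, read 10.32, 8.52, 10.99 and 13.28 with OR21 and 11.63, 10.73, 12.36 and 12.92 in the controls. Its differences were -1.31, -2.21 and -1.37 in HL60, MDSL and SKM1, and it was higher by 0.36 in K562, which gave a mean of -1.13 ± 1.07 (SD, n = 4 lines, adjusted p = 0.208). NBN and RAD50 belong to the complex that recognises broken ends. They followed another course: in HL60 they differed by -1.37 and -1.03, while RAD50 lay within 0.12 of the control in MDSL, SKM1 and K562, and NBN differed there by 0.12, -0.15 and -0.62. Their adjusted p were 0.375 for NBN and 0.641 for RAD50.

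**Figure D2:**
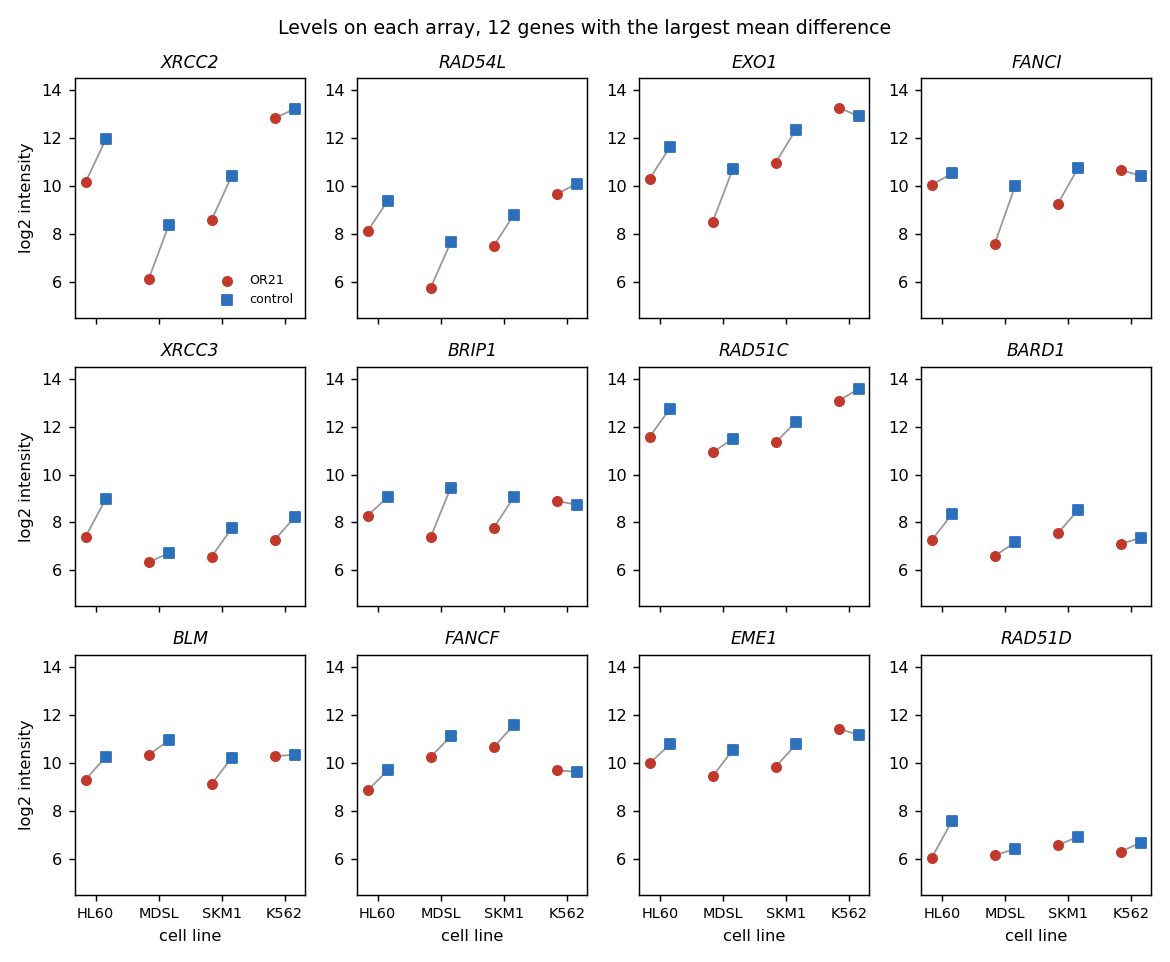
Log2 intensity (y axis) of the 12 genes with the largest mean difference in the 4 lines (x axis), red circles for OR21 and blue squares for control, 1 array each, joined within a line. XRCC2 with OR21 lies under its control in every line, with differences of -1.78, -2.27 and -1.84 in HL60, MDSL and SKM1 and -0.38 in K562.

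BRCA1 and BARD1 form a ubiquitin ligase that acts early at breaks, PALB2 links BRCA1 to BRCA2, and BRIP1 is a helicase that binds BRCA1. All 4 had a lower mean with OR21, but only BARD1 was lower in each line. BRIP1 had 8.29, 7.39, 7.78 and 8.90 in OR21-treated HL60, MDSL, SKM1 and K562, against 9.06, 9.46, 9.06 and 8.74 in the controls. The difference was largest in MDSL, -2.07, and K562 was higher with OR21 by 0.16 (mean -0.99 ± 0.93, SD, n = 4 lines, adjusted p = 0.215). Without MDSL the mean difference of BRIP1 was -0.63. BARD1 lay at 7.26, 6.60, 7.55 and 7.11 with OR21 and at 8.36, 7.17, 8.51 and 7.36 in the controls, with differences from -1.10 to -0.25 (mean -0.72, adjusted p = 0.160). BRCA1 itself was close to its control in HL60, 10.14 against 10.16. It was lower in MDSL (6.84 against 8.06) and SKM1 (8.69 against 9.65) and higher in K562 (9.97 against 9.26), so that its mean of -0.37 ± 0.88 (SD, n = 4 lines) lay within the spread between lines (adjusted p = 0.604). PALB2 differed by -1.56 in HL60, by -0.58 and -0.79 in MDSL and SKM1, and by 0.42 in K562 (adjusted p = 0.351).

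FANCI is the partner of FANCD2 in the complex that receives ubiquitin. It stood at 10.06, 7.60, 9.26 and 10.67 with OR21 in HL60, MDSL, SKM1 and K562, against 9.99 to 10.75 in the 4 controls (10.53, 9.99, 10.75 and 10.43 in the same order). The controls were nearly level, and the OR21 arrays spread over more than 3 log2 units, with MDSL lowest. MDSL gave the largest difference of any of the 28 genes in any line, -2.39 (mean over the lines -1.03 ± 1.15, SD, n = 4, adjusted p = 0.259). Without MDSL the mean difference of FANCI was -0.57.

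The core complex and UBE2T, the ubiquitin-conjugating enzyme that works with FANCL, made up 8 measured genes. Of these 8, 7 had a lower mean and 1, FANCM, a higher one, with a median of -0.46, and only FANCC was lower in all 4 lines (differences from -0.73 to -0.17, adjusted p = 0.198). FANCF, an adaptor within the complex, had 8.86, 10.25, 10.65 and 9.69 with OR21 and 9.70, 11.12, 11.59 and 9.64 in the controls. Its differences in HL60, MDSL and SKM1 were nearly the same, -0.84 to -0.94, and K562 stood apart at 0.05 (adjusted p = 0.205). UBE2T had 11.85, 9.56, 12.58 and 13.45 with OR21, against 12.25, 10.92, 13.11 and 13.41 in the controls, and FANCB, of the catalytic module, had 7.68, 6.41, 6.69 and 8.40 with OR21, against 8.06, 7.70, 7.29 and 8.35. Both were lowest relative to control in MDSL, by -1.36 for UBE2T and -1.29 for FANCB, and both had an adjusted p of 0.30. FANCM, the translocase that anchors the complex to forks, was dim throughout, at 6.54, 5.68, 5.63 and 6.54 with OR21 and 6.68, 5.52, 5.17 and 6.62 in the controls. Its mean difference was 0.10 ± 0.28 (SD, n = 4 lines, adjusted p = 0.819) and -0.03 with arrays centred on their medians, and the SKM1 control lay under the background median. FANCE was lower mainly in SKM1, where it differed by -1.59. FANCL and FANCG differed by -0.83 to -0.18 in HL60, MDSL and SKM1 and by 0.49 and 0.53 in K562.

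BLM, RMI1 and RMI2 act with a topoisomerase to separate joined molecules without crossing over. BLM stood at 9.31, 10.34, 9.12 and 10.28 in OR21-treated HL60, MDSL, SKM1 and K562, against 10.26, 10.95, 10.21 and 10.35 in the controls. It differed by -0.95, -0.61 and -1.09 in HL60, MDSL and SKM1 and by -0.07 in K562 (adjusted p = 0.190). RMI1 and RMI2 were close to their controls in HL60, with differences of 0.19 and 0.03, where BLM had -0.95. In MDSL they differed by -1.0 and -1.29, in SKM1 by -0.69 and -1.16, and in K562 by 0.12 and 0.76. Of the nucleases that cut joined molecules, EME1, the partner of MUS81, had 9.99, 9.45, 9.85 and 11.43 with OR21, against 10.77, 10.56, 10.77 and 11.17 in the controls. EME1 differed by -0.78, -1.11 and -0.93 in HL60, MDSL and SKM1 and by 0.26 in K562 (adjusted p = 0.257). MUS81 itself kept within 0.25 of its control in every line, with a mean of 0.05 ± 0.20 (SD, n = 4 lines), which was -0.08 with arrays centred on their medians (adjusted p = 0.919). The scaffold SLX4 was the only gene of the 28 with a difference over 0.5 upward in MDSL, 0.70, and had a mean of 0.17 ± 0.38 (SD, n = 4 lines, adjusted p = 0.701).

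Line by line, the 28 genes were shifted downward in HL60, MDSL and SKM1, each with 1 array per condition and no test. Lower values were found for 25 genes in HL60 (53.2% of all genes), 24 in MDSL (53.3%) and 25 in SKM1 (51.9%). By the measured values, 11 genes were at least 2-fold lower in HL60 (11.1% of all genes), 11 in MDSL (4.88%) and 9 in SKM1 (4.47%). With dim values held at the background median HL60 had 10, since RAD51B was shown to be only at least 1.92-fold lower, and with the 95th percentile of background the counts were 9 in HL60, 8 in MDSL and 7 in SKM1. The members past 2-fold differed between lines: HL60 had XRCC2, XRCC3, RAD51C, RAD51D, RAD54L, PALB2, BARD1, EXO1, NBN and RAD50, and RAD51B by its measured value, while MDSL had XRCC2, RAD54L, EXO1, FANCB, FANCI, BRCA1, BRIP1, RMI1, RMI2, UBE2T and EME1. SKM1 had XRCC2, XRCC3, RAD54L, EXO1, BRIP1, BLM, FANCE, FANCI and RMI2. XRCC2, RAD54L and EXO1 were past 2-fold in all of HL60, MDSL and SKM1 by their measured values, which the 95th percentile of background leaves for XRCC2 and EXO1. At least 2-fold higher were 0 of the 28 genes in each of HL60 (10.2% of all genes), MDSL (6.62%), SKM1 (7.10%) and K562 (5.05%).

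Hybridisation spikes, RNAs added to every sample before hybridisation, averaged 11.71 log2 on the array of OR21-treated HL60, while the rest ranged from 10.85 to 11.10. The polyadenylated spikes were also highest on that array, at 8.06 against 6.86 to 7.51 on the rest. Scaled to the hybridisation spikes, 21 of the 28 genes were at least 2-fold lower in HL60 and the median of the 28 was -1.54, but the median of all genes was then -0.81. The median of the 28 relative to that of all genes was -0.73 in HL60 in the values as deposited, -0.61 in MDSL and -0.80 in SKM1. In the same OR21-treated HL60 cells, 6 of 6 monocyte and macrophage markers were higher, with CD14 at 14.60 against 7.64 in the control and a summed level of 18.31 against 17.73 log2. All 4 measured neutrophil granule markers were lower there, with a median difference of -2.78 and a summed level of 16.14 against 17.56. Markers of other lineages were higher on that array as well: all 7 T and NK lymphocyte markers were (median difference 1.45, summed level 10.58 against 8.70), with GNLY at 9.28 against 3.49 and CD3D at 7.21 against 3.96. Only 2 of these 7 lay above the background median in the control and 5 with OR21. CD3G, which gave the median difference, lay under it on both arrays, and GNLY and CD3D did so in the control. Of 7 epithelial and fibroblast markers 4 were higher, with CDH1 at 7.36 against 3.77 and KRT8 at 12.08 against 9.17. The control value of CDH1 was under the background median of 5.41. The part of the spikes and of these markers in the HL60 values was not tested.

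In K562 10 genes were lower (50.0% of all genes), and 17 when each array was centred on its median, where 61.3% of all genes were lower. At least 2-fold lower were 0 of the 28 (3.86% of all genes), or 1 with that centring. The median relative to that of all genes was 0.09. Of the 28, 13 were lower in HL60, MDSL and SKM1 and higher in K562, a pattern of 8.82% of all genes. They were FANCB, FANCE, FANCF, FANCG, FANCI, FANCL, UBE2T, BRCA1, BRIP1, PALB2, EXO1, RAD50 and EME1, and with median centring they numbered 11. Another 8 were lower in all 4 lines, as were 15.3% of all genes: FANCC, RAD51C, RAD51D, XRCC2, XRCC3, RAD54L, BARD1 and BLM. The upward K562 values were small, at most 0.76 (RMI2) and 0.71 (BRCA1). K562 was set beside the other lines with these results known, so the contrast is a description. All 6 measured erythroid markers were higher in OR21-treated K562, with a summed level of 17.38 against 15.14 log2 and HBZ at 16.22 against 13.68. They were also higher in MDSL, 12.99 against 11.16 in sum, where the 28 genes were lower, though only 4 of the 6 lay above the background median in MDSL control. All 3 measured general myeloid markers were lower in OR21-treated K562, with a summed level of 11.54 against 12.46 and PTPRC at 9.14 against 10.36. The part of these markers in the K562 values was not tested.

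Dose and line cannot be told apart, since HL60 and K562 had 500 nM and MDSL and SKM1 had 100 nM. In limma's interaction test of the response at 500 nM against that at 100 nM, 0 of the 28 genes passed an adjusted p of 0.05 (0.0% of all genes). At an unadjusted p under 0.05, the response of 5 genes at 500 nM lay above that at 100 nM (2.75% of all genes): FANCI, BRCA1, BRIP1, RMI1 and RMI2, each with an adjusted p of 0.877. FANCI averaged -0.11 at 500 nM and -1.94 at 100 nM, and RMI2 averaged 0.39 at 500 nM and -1.23 at 100 nM. These 5 genes were picked by that difference, so their lower levels relative to control at the lower dose follow from the choice.

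The order of the 28 genes was most alike in MDSL and SKM1. Across the 28 genes, Pearson's r of the differences was 0.72 between MDSL and SKM1 (0.46 across all genes) and 0.585 between HL60 and K562 (0.30 across all genes). It was 0.28 between HL60 and SKM1 (0.55 across all genes), 0.09 between HL60 and MDSL (0.35), -0.15 between MDSL and K562 (0.21) and -0.11 between SKM1 and K562 (0.24). MDSL and SKM1 shared a dose, as did HL60 and K562, and genes are not independent replicates. For the BCDX2 and CX3 genes HL60 had the lowest median difference, -1.52, followed by SKM1 with -0.86, MDSL with -0.39 and K562 with -0.38. This order rests in part on dim values. The HL60 median is that of RAD51D, at least 1.45-fold lower against the 95th percentile of background. The MDSL median is that of XRCC3, with both values under that level, which gives no bound. The dissolution genes BLM, RMI1 and RMI2 had medians of 0.03 in HL60, -1.09 in SKM1, -1.0 in MDSL and 0.12 in K562, where arrays centred on their medians gave -0.14 in HL60 and -0.02 in K562. With spike scaling the HL60 medians were -2.28 for the BCDX2 and CX3 genes and -0.74 for the dissolution genes, where all genes had -0.81.

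**Figure D3:**
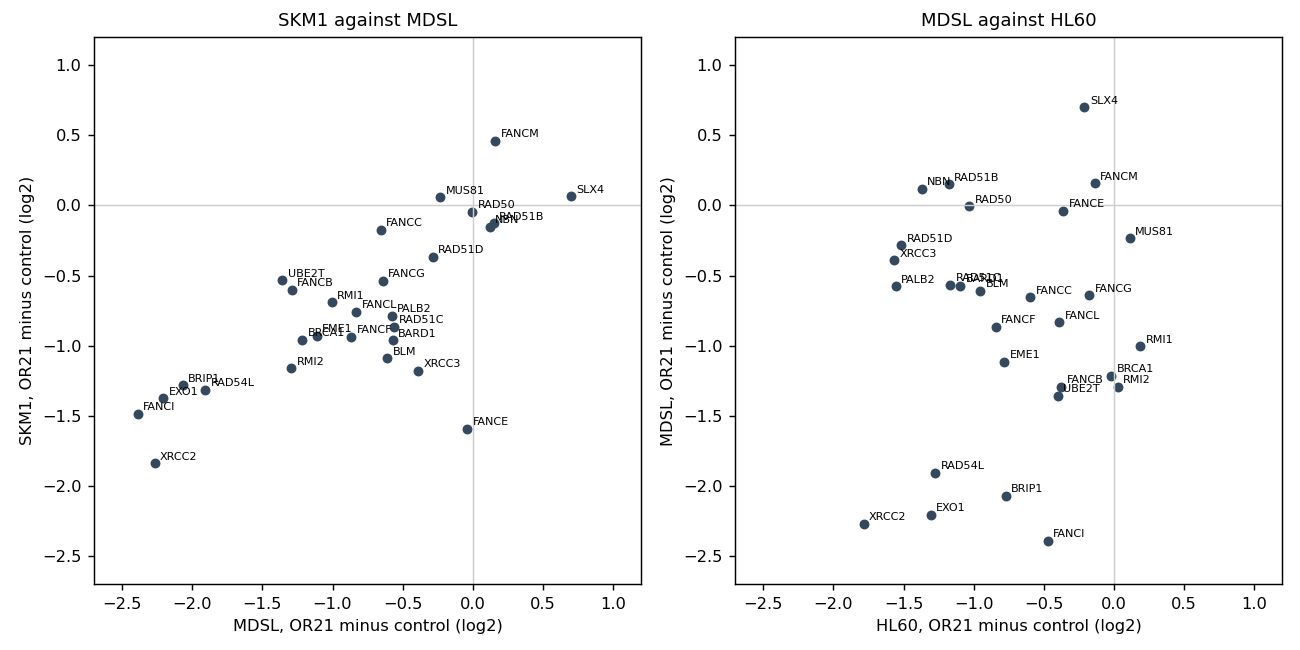
Log2 difference, OR21 minus control, of each of the 28 genes in SKM1 against MDSL (left) and in MDSL against HL60 (right); each point is 1 gene. The points on the left run along a diagonal from XRCC2 to SLX4 and FANCM (r = 0.72), while on the right NBN, RAD51B and RAD50 are low in HL60 and near 0 in MDSL, and RMI1, RMI2 and BRCA1 are low in MDSL and near 0 in HL60 (r = 0.09).

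Other repair genes were taken from lists chosen with earlier results of these data known. Of 42 other measured Fanconi and homologous recombination genes, 33 had a lower mean with OR21 (52.4% of all genes), 9 were lower (10.1%) and 0 higher (8.98%) at an unadjusted p under 0.05, and 0 passed the adjusted threshold. BRCC3, a deubiquitinating enzyme of the BRCA1-A complex, was lower in all 4 lines, with differences from -1.65 to -0.73 (mean -1.25 ± 0.39, SD, n = 4 lines, adjusted p = 0.104). FIGNL1, an ATPase of homologous recombination, averaged -1.11 ± 0.72, and the checkpoint kinase CHEK1 averaged -1.13 ± 0.83 with 0.08 in K562. The list's medians were -0.39, -0.43, -0.32 and 0.02 in HL60, MDSL, SKM1 and K562. In HL60, MDSL and SKM1 they lay nearer to 0 than those of the 28 genes. In K562, with arrays centred on their medians, the list was at -0.12 and the 28 genes at -0.05. With spike scaling the list was at -1.15 in HL60 and the 28 genes at -1.54, where all genes had -0.81.

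The medians of the replication genes lay further below 0 than those of the 28 genes. All 30 had a lower mean with OR21, 26 at an unadjusted p under 0.05 (10.1% of all genes) and 0 past the adjusted threshold, with medians of -1.16, -1.87, -1.43 and -0.15 in HL60, MDSL, SKM1 and K562. With spike scaling the HL60 median of the replication genes was -1.92 and the K562 one -0.04, where all genes had -0.81 and 0.10. GINS1, of the replicative helicase, averaged -1.66 ± 0.74 (SD, n = 4 lines, adjusted p = 0.113). The 24 mitosis genes split by line, with medians below 0 at 100 nM (-1.61 in MDSL, -0.90 in SKM1) and above 0 at 500 nM (0.17 in HL60, which was -0.59 with spike scaling, and 0.32 in K562). Of 19 E2F and pocket protein genes 3 were lower and 1 higher at an unadjusted p under 0.05. Their medians were -0.21, -0.20, -0.30 and -0.09 in HL60, MDSL, SKM1 and K562 (-0.97 in HL60 and 0.02 in K562 with spike scaling), with upper quartiles above 0 in each line, and E2F1 differed by -1.69, -1.0, -0.88 and 0.72 from HL60 to K562 (adjusted p = 0.373). The part of these cell cycle genes in the values of the 28 was not tested.

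The other repair pathways had lower medians too. Median differences in HL60, MDSL, SKM1 and K562 were -0.88, -0.38, -0.48 and -0.20 for 18 base excision repair genes, and -0.49, -0.39, -0.24 and -0.26 for 16 nucleotide excision repair genes. They were -1.09, -0.57, -0.78 and -0.13 for 5 mismatch repair genes, and -0.76, -0.29, -0.25 and -0.38 for 15 end joining genes. Spike scaling put the HL60 medians of these 4 lists between -1.85 and -1.25. The uracil glycosylase UNG averaged -1.55 ± 0.84 and the kinase of end joining PRKDC averaged -1.18 ± 0.52 (SD, n = 4 lines each, adjusted p = 0.122 for UNG and 0.118 for PRKDC). In K562 all 4 of these lists had medians below 0, where the 28 genes had 0.09, or -0.05 with arrays centred on their medians.

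**Figure D4:**
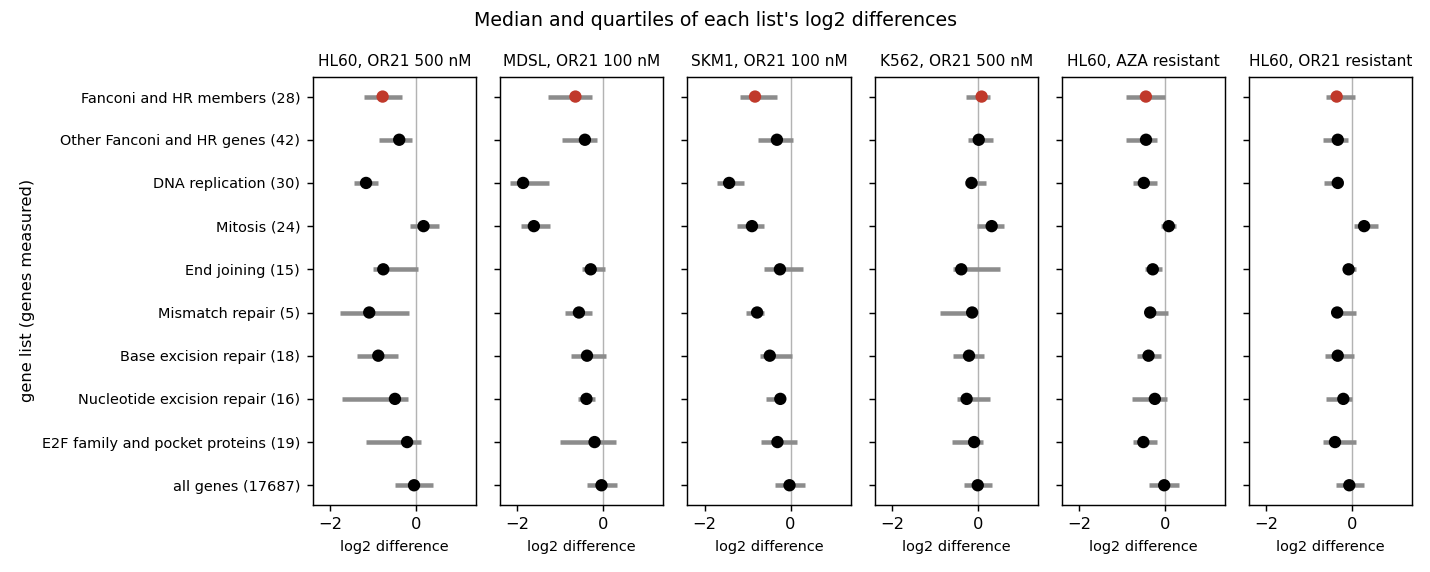
Median (dot) and quartiles (bar) of the log2 differences of each gene list (y axis, genes measured in brackets) in the 6 comparisons, with the 28 genes in red and all genes at the bottom. DNA replication lies furthest left in MDSL at -1.87 and the 28 genes at -0.65, while in K562 the 28 genes lie at 0.09 (-0.05 with arrays centred on their medians).

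The derivatives were compared with parental HL60, again with 1 array each and no test. Both derivatives were set against the same parental control array, also the control of OR21-treated HL60, so their values are given side by side. Lower values were found for 21 genes in AZA resistant cells (51.5% of all genes) and 19 in OR21 resistant cells (55.7%), with medians of -0.45 and -0.36 beside -0.02 and -0.07 over all genes. At least 2-fold lower were 4 genes in AZA resistant cells (5.11% of all genes), FANCM, XRCC2, BRIP1 and FANCB, and 1 in OR21 resistant cells (4.27%), BRCA1, a count near the share over all genes. FANCB in AZA resistant cells was at least 1.99-fold lower against the 95th percentile of background. With each array centred on its median these counts were 9 and 3. The share of all genes past 2-fold was not counted with that centring. It moved the median of all genes to -0.18 in AZA resistant and -0.22 in OR21 resistant cells, so 9 and 3 cannot be set against the shares above. At least 2-fold higher were 0 of the 28 in either derivative (7.04% of all genes in AZA resistant and 7.69% in OR21 resistant cells).

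XRCC2 stood at 10.91 in AZA resistant and 11.25 in OR21 resistant HL60, against 11.95 in parental HL60. BRIP1 had 8.05 in AZA resistant and 8.56 in OR21 resistant cells, against 9.06, and FANCB had 7.04 and 7.39 in these cells, against 8.06. Each of these 3 genes was lower in both derivatives, with AZA resistant cells the lower of the pair. FANCM lay under the background median in AZA resistant cells, at 4.74 against 6.68 in parental cells, at least 2.39-fold lower, and at 6.29 in OR21 resistant cells. All of these FANCM values lay under the 95th percentile of background, which gives no bound. BRCA1 was at 9.18 in AZA resistant and 9.15 in OR21 resistant cells, against 10.16, while OR21-treated HL60 had 10.14. So, in the values as deposited, BRCA1 was lower in both derivatives and level after 96 h of OR21. RAD51C had 11.98 in AZA resistant and 11.89 in OR21 resistant cells, against 12.75, and RAD51D had 6.57 and 6.62, against 7.57. These genes were lower in treated and in resistant HL60, whereas XRCC3, at 8.96 and 9.03 against 8.98, was lower in treated cells and near parental cells in the derivatives, a contrast with 1 array each and no test.

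Some members were higher in the derivatives. UBE2T had 12.77 in AZA resistant and 13.10 in OR21 resistant cells, against 12.25, where OR21-treated HL60 had 11.85. EXO1 differed by 0.43 and 0.54, BLM by 0.28 and 0.37, FANCE by 0.49 and 0.32, and FANCF by 0.26 and 0.24, in AZA resistant and OR21 resistant cells. In OR21-treated HL60 the same genes differed by -1.31 for EXO1, -0.95 for BLM, -0.36 for FANCE and -0.84 for FANCF. BARD1, which differed by -1.10 after OR21, was within 0.04 of parental cells in both derivatives. The neutrophil granule markers were lower in both derivatives as well, with median differences of -1.74 in AZA resistant and -1.75 in OR21 resistant cells, and their part in these values was not tested.

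**Figure D5:**
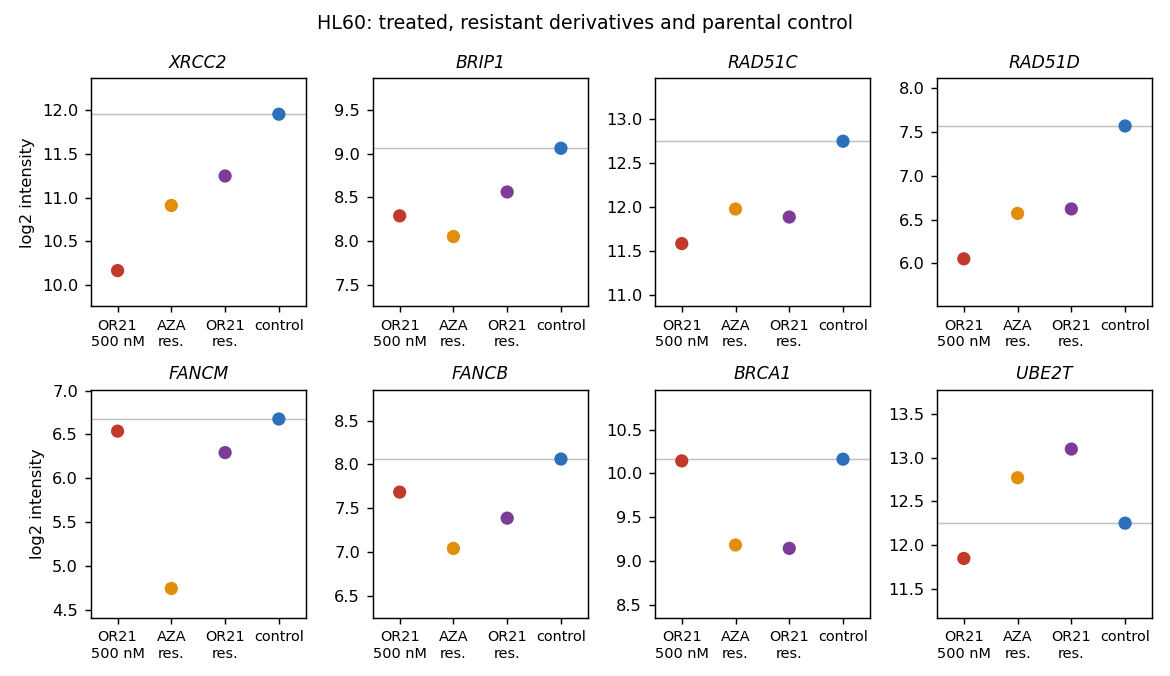
Log2 intensity (y axis, each panel spanning 2.6 units) of the 8 genes with the largest differences in a resistant derivative, on the HL60 arrays (x axis: OR21-treated, AZA resistant, OR21 resistant, parental control); 1 point is 1 array and the grey line is the control. BRCA1 is at 9.18 and 9.15 in the derivatives against 10.16 in control, and UBE2T is above its control in both.

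Untreated lines differed in the levels of these genes. MDSL control had the lowest level of the 4 controls in 16 of the 28 genes (26.1% of all genes) and K562 control the highest in 11 (29.9%). XRCC2 had the widest range, 4.85 log2 units between K562 and MDSL, followed by UBE2T with 2.49, RAD54L with 2.45 and XRCC3 with 2.25. FANCI, at 0.76, was among the narrowest. Each line had 1 control array, so neighbours in these orders could not be tested. Single lineage markers also differed between the controls. The promyelocytic enzyme MPO was at 17.01 in HL60 and 17.08 in SKM1. The granule marker CTSG was at 13.78 in HL60 and 7.80 in SKM1, while AZU1 and PRTN3 were higher in SKM1 than in HL60. The embryonic globin HBZ was at 13.68 in K562 against 3.50 to 3.94 in the others. CD34 was at 14.68 in MDSL against 4.71 to 5.58, and IL3RA at 12.01 against 3.45 to 5.91. Other progenitor markers did not single out MDSL: KIT was at 12.54 in MDSL and 12.55 in SKM1, and FLT3 at 8.84 and 10.31. The median gene of an array had a level of 6.63 to 7.05. Of 280 member values, 4 were no brighter than the background median of the array, in FANCG, FANCM and RAD51B, and 0 members did so on every array. FANCG in OR21-treated MDSL was one of them, at 5.23 against 5.87, at least 1.37-fold lower against the background median. Both values lay under the 95th percentile of background, which gives no bound.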

How the data were processed

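Gene expression was measured on 10 single-colour arrays of biotin-labelled total RNA. The authors deposited 1 linear intensity per probe set and array, from 4.25 to 405294, and the software, background correction and normalization behind it are not given in the sources used here. Since array quartiles were similar, the deposited intensities were only log2-transformed, without pseudocount, filter or further normalization. Precision is limited by the number of arrays, as intensities carry no read depth. The table held 24351 rows. The platform annotation gave 1 symbol to 17709 probe sets and several to 0, and did not list 6642 rows. Entrez identifiers updated 0 symbols. Of 20 genes with over 1 probe set, 0 of them members, the probe set with the highest mean was kept, which left 17687 genes. 0 columns belonged to no sample.

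The 28 measured members and the other lists were chosen with earlier results of these data known. The OR21 response was fitted with limma 3.58.1 (lmFit and eBayes) in R 4.3.3 on the 8 arrays of treated and control cells, blocked by cell line, with two-sided p-values adjusted by Benjamini-Hochberg across all genes and a threshold of 0.05. The pairing is the cell line itself, per the labels, and the line is the only replicate. Residual degrees of freedom were 3 and prior ones 3.49. The dose interaction used the same values. Single lines and derivatives had 1 array per condition and are given as differences, counted at 2-fold. Background is the median of 23 background probe sets per array. A value at or under it gives a bound: the brighter value over the higher of that background median and the dim value. Levels on every array are given for the 12 members with the largest mean response and the 4 with the largest difference in each derivative, and of other lists for up to 3 genes by mean response. Steps were tested on simulated data. Alternatives were quantile normalization, median centring, log2 of intensity plus 16, a filter at the 30th percentile, the mean of probe sets, no block, each line left out, the 95th percentile of background, and, added after the data were seen, scaling to hybridisation spikes and 2-fold counts with dim values at their bound. Promoter windows came from RefSeq.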

Additional observations from a re-analysis of the deposited data

Results flagged for a closer look

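Of 84 groups of 4 values (responses, OR21 levels and control levels of the 28 genes), 3 had 1 value far from the other 3 by Dixon's test at its 95% critical value, where chance gives about 1 in 20. The 3 are no more than that share of 84 groups, so their count shows no excess of outliers. The OR21 response of FANCF was 0.049 in K562, far above the -0.84 to -0.94 of HL60, MDSL and SKM1. The response of RAD51D was -1.52 in HL60, far below the -0.28 to -0.38 of the other lines. That of RAD50 was -1.03 in HL60, with -0.05 to 0.12 in the other lines.

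The median response of the 28 genes was 0.090 in K562 and below 0 in HL60, MDSL and SKM1, a difference between lines that was not tested and that turned to -0.054 in K562 with arrays centred on their medians. The hybridisation spikes of OR21-treated HL60, which no comparison of the report tests, averaged 11.71 log2, with 10.85 to 11.10 on the other arrays.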

How the results depend on the processing

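Of 308 alternative mean responses of single genes, 297 kept their direction and their side of the threshold. Another 1 newly passed it and 10 changed sign. Probe set averaging, the percentile filter and removal of the block could not move these mean responses, so those values kept their direction by construction. With the values as deposited no member passed the threshold, so keeping a side meant only staying short of it. No alternative other than spike scaling took a gene past the threshold. Scaling to hybridisation spikes gave 1 gene past it, XRCC2 at -1.70 (adjusted p = 0.0375), with a median of the mean responses of -0.69, and the lowest adjusted p of the 28 was between 0.0908 and 0.982 in the others. Without the cell line block (the pairing), 1 gene was lower at an unadjusted p under 0.05 in place of 13. Leaving out 1 line gave 5 to 15 such genes: 6 without HL60, 5 without MDSL, 5 without SKM1 and 15 without K562. The median of the mean responses was then -0.49 to -0.76, and with median centring -0.68. Median centring moved the median of all genes to -0.22, -0.09, -0.17, -0.14, -0.18 and -0.22 in HL60, MDSL, SKM1, K562, AZA resistant and OR21 resistant cells, and the medians of the 28 to -0.95 in HL60, -0.97 in SKM1, -0.054 in K562 (a change of sign), -0.61 in AZA resistant and -0.51 in OR21 resistant cells. At least 2-fold lower were then 14 genes in SKM1, 1 in K562, 9 in AZA resistant and 3 in OR21 resistant cells. Lower genes then numbered 23 in OR21 resistant cells (66.8% of all genes) and 17 in K562. Spike scaling gave medians of -1.54 in HL60, with 21 genes at least 2-fold lower, and 0.19 in K562, and 7 such genes in AZA resistant cells. Quantile normalization gave medians of -0.66 in HL60 and -0.94 in SKM1, and 2 such genes in OR21 resistant cells. With log2 of intensity plus 16, 2 such genes were left in AZA resistant and 0 in OR21 resistant cells. For all these 2-fold counts, shares over all genes were taken only in the values as deposited. Signs of the mean response changed for FANCM (-0.028 centred, -0.036 spike-scaled) and MUS81 (-0.080 centred, -0.088 spike-scaled). Leaving out 1 line gave mean responses of -0.67 to 0.035 for FANCE, -0.023 to 0.18 for FANCM, -0.43 to 0.0089 for RAD51B, -0.36 to 0.022 for RAD50, -0.0016 to 0.30 for SLX4 and -0.021 to 0.14 for MUS81. Without MDSL the mean was -0.57 in place of -1.03 for FANCI, -0.63 in place of -0.99 for BRIP1, -0.30 in place of -0.56 for UBE2T and -0.31 in place of -0.55 for FANCB. Without HL60 it was -0.34 in place of -0.64 for RAD51D, -0.32 in place of -0.63 for PALB2 and -0.22 in place of -0.51 for NBN. The causes of these changes were not tested. Dim probe sets limit several members. With the 95th percentile of background in place of its median, 50 of 280 values and 12 members had a dim array. FANCM and RAD51B were dim on all 10 arrays, RAD51D on 9 and FANCG on 7. Measured differences of -2.27 for XRCC2 and -1.91 for RAD54L in MDSL then become at least 2.68-fold and 1.64-fold, that of RAD51D in HL60 at least 1.45-fold and that of FANCE in SKM1 at least 1.62-fold. With dim values at that level, AZA resistant cells had 2 genes at least 2-fold lower, HL60 had 9, MDSL had 8 and SKM1 had 7.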

Other observations

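Outside the 28 genes, lineage markers differed within single lines after OR21, as values of 1 array per condition. CD68, a macrophage protein, was higher in all 4 lines, by 0.86 to 3.63 log2 (mean 2.11 ± 1.16, SD, n = 4 lines, adjusted p = 0.116 in limma's test). ALAS2, the first enzyme of haem synthesis in erythroid cells, was higher by 6.13 in K562, where it stood at 14.20 against 8.07. GATA1, an erythroid transcription factor, was higher by 3.80 in SKM1, at 10.29 against 6.49. Of the 6 measured erythroid markers, 4 were lower in SKM1, with a median difference of -0.30, and 3 lay above the background median on each SKM1 array. FLT3, a receptor of progenitor cells, was lower in SKM1 (6.27 against 10.31) and MDSL (5.33 against 8.84), and also in AZA resistant and OR21 resistant HL60 (4.48 and 4.83 against 7.44 in parental HL60). The FLT3 values of OR21-treated MDSL and of both derivatives lay under the background median of 5.42 of their arrays, so the sizes of these differences are not fixed. Of 15 end joining genes, APLF, a histone chaperone that helps ligation, was higher in all 4 lines, by 0.67 to 1.34 (mean 0.88 ± 0.31, SD, n = 4 lines, adjusted p = 0.123).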
